A study of Mus musculus with 15 samples.

Results

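The genes of cholesterol and fatty acid synthesis were followed in CD8+ T cells before and after antigen stimulation. They comprise the enzymes of the mevalonate and sterol pathway, the enzymes that make, lengthen and desaturate fatty acids, the SREBP regulators with a sterol transport protein, and a pair of sterol efflux pumps. The set was named gene by gene, as 38 symbols. No expression threshold entered the rule, but the set was proposed with earlier results of these data known. A row was found for 37 of them, with Msmo1 listed under its older symbol Sc4mol, among 17493 genes in the count tables. Of these, 35 passed the filter on low counts, beside 10831 genes in all. The pair that did not pass, the desaturase genes Fads2 and Scd1, had at most 4 and 6 counts in any library.

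Bulk RNA was measured in 15 libraries, 3 in each of 5 groups. All cells were CD8+ OT-I T lymphocytes from spleen and lymph nodes of female C57BL/6-Tg(TcraTcrb)1100Mjb mice, whose transgenic receptor recognises an ovalbumin peptide on MHC class I. The unstimulated group was untreated, at 0 h. No group without a stimulus was taken at 8 h or 22 h. In the comparisons with unstimulated cells, the stimulus and the time in culture therefore cannot be told apart. The stimulated groups were taken at 8 h or 22 h, after either of 2 stimuli given to 50000 T cells per well. IF-pMHC(SIIT)/IL-2, called IF here, is an immunofilament, a synthetic filament that by its name carries peptide-loaded MHC and interleukin-2, and it was used at 5 ng/ml. The other stimulus, called DC here, was 20000 dendritic cells per well, grown with Flt-3 ligand and pulsed with the peptide SIITFEKL. Viable CD8+ CD103- cells were sorted before RNA extraction. Replicates are numbered Don1 to Don3 in every group, and the labels do not say whether they are separate animals, so p-values measure the spread between these libraries, which may be technical.

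Cholesterol is made from acetyl-CoA through mevalonate, isoprenoid units, squalene and lanosterol, and fatty acids are made from the same acetyl-CoA by carboxylation and chain extension. Both branches are driven by the SREBP transcription factors, which SCAP escorts out of the endoplasmic reticulum when sterols are low and INSIG proteins hold back when sterols are high. SREBPs bind sterol regulatory elements next to sites for the factors NF-Y and Sp1. T cells that enter growth after antigen contact build much new membrane, and SREBP activity is known to be needed for this growth. Surplus sterols act the other way: oxysterols activate LXR, which induces the efflux pumps Abca1 and Abcg1.

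Promoter sequence was available for 29 of the 37 genes in the RefSeq table for GRCm38.p6, which holds 250 bases before to 50 bases after each start. Both strands were searched for 4 motifs. The NF-Y box CCAAT lay in 14 of 15 sterol gene promoters and in 5 of 8 of the fatty acid branch, beside 41.1% of all 27025 genes in the table. The GC box GGGCGG, the Sp1 site, lay in 14 of 15 sterol gene promoters and 4 of 8 of the fatty acid branch, beside 38.2% of all genes. The sterol regulatory element TCACNCCAC lay in 1 of the 29, that of Hmgcs1, beside 1.44% of all genes, and the E-box CACGTG in 7 of the 29, beside 8.09%. A gene with more than 1 promoter in the table was counted once, for a match in any of them. No motif of the 4 contains another. These are matches of letters in a window and were not tested for binding.

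The 150 bases before the RefSeq start are shown, 5′ to 3′ on the gene's strand, for 4 of the sterol genes that passed the test below (Acat2, the other one in the table, held no NF-Y box). Acss2 and Elovl6 are shown as fatty acid genes that moved in opposite directions. The gene spans given below are from GENCODE, whose starts differ from these. By them the Sc4mol stretch lies wholly inside the gene, and those of Idi1, Cyp51, Acss2 and Elovl6 reach into it. Only the Hmgcs1 stretch lies ahead of the GENCODE start. Capitals mark the matches to the sterol regulatory element, the NF-Y box (CCAAT or ATTGG) and the GC box (GGGCGG or CCGCCC).
Hmgcs1, chr13:119690201-119690350, plus strand: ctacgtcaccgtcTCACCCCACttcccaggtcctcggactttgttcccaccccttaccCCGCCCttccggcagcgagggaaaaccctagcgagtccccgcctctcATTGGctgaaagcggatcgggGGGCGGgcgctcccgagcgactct
Idi1, chr13:8885456-8885605, plus strand: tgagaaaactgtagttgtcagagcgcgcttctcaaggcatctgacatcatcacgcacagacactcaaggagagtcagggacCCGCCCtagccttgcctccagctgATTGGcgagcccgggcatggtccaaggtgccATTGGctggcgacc
Cyp51, chr5:4104698-4104847, minus strand: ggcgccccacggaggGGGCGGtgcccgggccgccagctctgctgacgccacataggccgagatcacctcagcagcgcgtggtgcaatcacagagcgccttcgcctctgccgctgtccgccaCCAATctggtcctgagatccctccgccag
Sc4mol (Msmo1), chr8:64733579-64733728, minus strand: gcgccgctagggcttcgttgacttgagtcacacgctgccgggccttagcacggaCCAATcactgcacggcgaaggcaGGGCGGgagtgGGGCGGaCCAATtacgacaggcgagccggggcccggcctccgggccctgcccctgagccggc
Acss2, chr2:155517893-155518042, plus strand: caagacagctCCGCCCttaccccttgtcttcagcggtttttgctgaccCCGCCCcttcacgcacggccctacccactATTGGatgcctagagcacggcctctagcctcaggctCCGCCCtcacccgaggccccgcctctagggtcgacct
Elovl6, chr3:129532236-129532385, plus strand: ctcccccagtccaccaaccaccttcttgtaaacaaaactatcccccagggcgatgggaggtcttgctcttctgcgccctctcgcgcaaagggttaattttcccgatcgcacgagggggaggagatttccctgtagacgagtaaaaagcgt
In the Hmgcs1 promoter the sterol regulatory element began 137 bases before the RefSeq start. It lay ahead of a GC box at 92, an NF-Y box at 45 and a second GC box at 24 bases before that start. The Acss2 promoter held 3 GC boxes and 1 NF-Y box in this stretch, and that of Elovl6 held none of the 3 motifs. The 4 sterol promoters shown were picked for holding an NF-Y box.

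Library totals ran from 2892874 to 19806730 counts. Replicates 2 and 3 of IF 22 h stood apart from the rest: mitochondrial ribosomal RNA made up 0.179% and 0.146% of their counts, against 1.82% to 4.49% in the 13 others, which include replicate 1 of that group. The calls at IF 22 h, the values nearest to the threshold and the branch medians are therefore given with and without this pair. The summed normalised count of 8 CD8 T cell markers was 8620 to 9360 CPM (counts per 1000000 of the library total, scaled as described for the test) in unstimulated libraries and 3900 to 6280 CPM in stimulated ones, and Cd4 was at 0 in 14 of the 15 libraries. The summed count of 18 dendritic cell markers was 650 to 1540 CPM in unstimulated cells. At 8 h it was 223 to 470 CPM with IF and 915 to 1260 CPM with DC, and at 22 h it was 375 to 635 CPM with IF and 492 to 659 CPM with DC. Fscn1, a marker of mature dendritic cells, had 126 to 168 CPM after 8 h with DC, 72.9 to 94.8 CPM after 22 h with DC and 5.83 to 43.8 CPM after 22 h with IF, against at most 6.75 CPM in the other groups. Zbtb46, which defines conventional dendritic cells, was at 0 in the unstimulated and IF 8 h groups. It had 0.12 to 0.408 CPM at IF 22 h, 1.17 to 2.28 CPM at DC 8 h and 0.442 to 0.684 CPM at DC 22 h (3 counts equal 0.153 to 0.44 CPM there). Other markers of the 18 went the other way. Xcr1 was at 9.54 to 45.6 CPM unstimulated, 2.35 to 3.35 CPM at DC 8 h and 0.111 to 0.256 CPM at DC 22 h. Itgax was at 12.8 to 16.3, 3.82 to 6.93 and 2.05 to 7.69 CPM in the same groups. These markers were picked out after their values were seen. The part of these other-cell transcripts in the results below was not tested. In bulk RNA, fewer cells of a type and less RNA per cell cannot be told apart.

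After stimulation a block of sterol enzymes rose, the fatty acid branch moved in both directions, the SREBP regulators did not pass the test, and the efflux pump Abcg1 fell. Over the 4 comparisons with unstimulated cells, which share the same 3 control libraries, 11 of the 35 genes passed an adjusted p of 0.05 in at least 1 (edgeR's quasi-likelihood test, Benjamini-Hochberg adjustment over 10831 genes), beside 15.5% of all genes tested. By the same count 6.8% of all genes were higher and 8.76% lower in at least 1. Of the 18 sterol enzymes, 7 were higher and 0 lower. Of the 9 tested genes of the fatty acid branch, 1 was higher and 2 were lower. None of the 6 regulators passed by edgeR (DESeq2 called 1), and 1 of the 2 efflux genes was lower.

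At IF 8 h, 6 of the 35 genes passed, beside 7.76% of all genes tested: Sqle, Cyp51 and Sc4mol were higher, and Scd2, Acss2 and Abcg1 were lower. At DC 8 h, 5 passed, beside 6.82%: Sqle, Sc4mol, Idi1 and Elovl6 were higher and Acss2 was lower. At IF 22 h, 7 passed, beside 6.08%: Hmgcs1, Idi1, Fdft1, Cyp51 and Sc4mol were higher, and Scd2 and Abcg1 were lower. At DC 22 h, 7 passed, beside 7.76%: Acat2, Idi1, Sqle, Cyp51, Sc4mol and Elovl6 were higher and Abcg1 was lower. With IF, 3 of the 18 sterol enzymes were called higher at 8 h and 5 at 22 h, beside 3.04% and 2.63% of all genes tested, and with DC 3 and 5, beside 2.75% and 3.41%. The share of all genes called lower was 4.72% and 3.44% with IF and 4.07% and 4.35% with DC, and 0 of the 18 were called lower. Without IF 22 h replicates 2 and 3, none of the 35 genes passed at IF 22 h by edgeR (12 had an unadjusted p under 0.05, beside 10.3% of all genes in that fit), in a fit where replicate 1 is the group's only library and is assumed to vary like the other groups. The log2 fold changes of 6 of the 7 genes called there stayed near their values from 3 libraries: 1.22 against 1.23 for Hmgcs1, 1.74 against 1.94 for Cyp51, 1.79 against 2.03 for Idi1, 1.14 against 1.38 for Sc4mol, −2.24 against −2.08 for Scd2 and −1.50 against −1.75 for Abcg1. That of Fdft1 was 0.78 against 1.42.

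The split of calls depended on the scaling. With library size alone in place of TMM, 8 of 11 calls were higher with IF and 8 of 9 with DC at 8 h, against 3 of 6 and 4 of 5 with TMM. At 22 h it was 11 of 13 with IF and 12 of 12 with DC, against 5 of 7 and 6 of 7. That scaling moved the all-gene median of the log2 fold change from 0.02 to 0.26 (IF) and from 0.04 to 0.30 (DC) after 8 h, and from 0.01 to 0.22 (IF) and from 0.04 to 0.37 (DC) after 22 h. None of the members named here as past the threshold changed direction under any alternative.

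**Figure D1:**
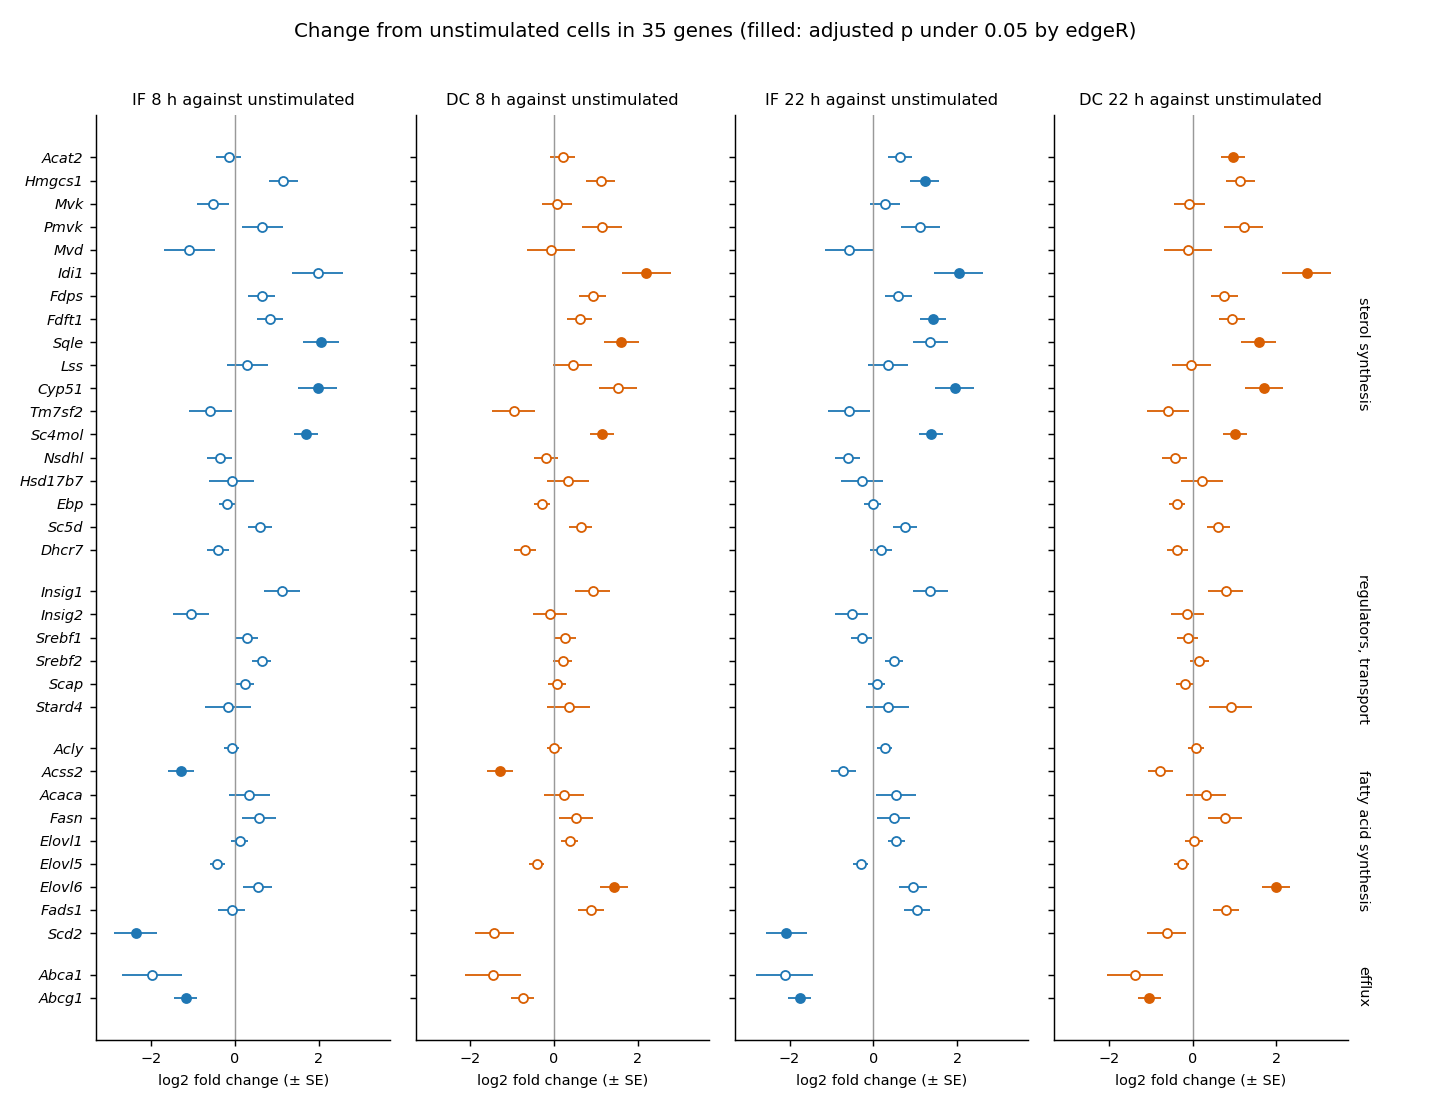
Log2 fold change against unstimulated cells (x axis, ± SE) of the 35 tested genes (rows, grouped by branch), with one panel per stimulated group, 3 libraries against 3. Filled points passed an adjusted p of 0.05 by edgeR; within the sterol branch all filled points lie to the right of 0, and Scd2, Acss2 and Abcg1 carry the filled points to the left.

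The sterol enzymes summed to more after stimulation than before. The summed normalised count of the 18 genes was 265, 246 and 263 CPM in the unstimulated libraries. At 8 h it was 452, 374 and 382 CPM with IF and 379, 431 and 331 CPM with DC. At 22 h it was 383, 449 and 499 CPM with IF and 366, 546 and 302 CPM with DC. Every stimulated library lay above every unstimulated one, and DC 22 h had the widest spread. As a description only, since the split follows from the calls on these libraries, the 7 genes called higher in at least 1 comparison summed to 91.7 to 120 CPM in unstimulated libraries and 157 to 351 CPM in stimulated ones. The other 11 summed to 140 to 172 CPM unstimulated and 128 to 195 CPM stimulated, and each stimulated group overlapped the unstimulated libraries. The median log2 fold change of the 18 genes with IF was 0.45 at 8 h and 0.61 at 22 h, where that of all genes was 0.02 and 0.01. Without IF 22 h replicates 2 and 3 it was 0.53 at 22 h, against −0.01 over all genes. With DC it was 0.52 and 0.69, where that of all genes was 0.04 at both times. All 3 stimulated libraries exceeded all 3 unstimulated ones in 8 of the 18 genes at 8 h and 10 at 22 h with IF, beside 14.2% and 15.7% of all genes tested, and in 6 and 9 with DC, beside 13.0% and 12.8%. The reverse held for 1 and 0 of the 18 with IF, beside 16.4% and 14.7%, and for 1 and 1 with DC, beside 15.2% and 14.2%.

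The fatty acid branch showed no such rise of its sum. Its 11 genes summed to 468, 520 and 448 CPM in unstimulated libraries and at 8 h to 370, 406 and 428 CPM with IF and 460, 443 and 432 CPM with DC. At 22 h they summed to 448, 531 and 489 CPM with IF and 483, 528 and 484 CPM with DC. The values at IF 8 h lay below all unstimulated ones, and those of the other groups overlapped them. In unstimulated libraries Acly held 111 to 158 CPM of the sum and Elovl5 137 to 142 CPM, so changes of the low genes weigh little in it. The median log2 fold change of the branch's 9 tested genes was −0.07 with IF and 0.24 with DC at 8 h. At 22 h it was 0.48 with IF (0.23 without IF 22 h replicates 2 and 3) and 0.08 with DC. With IF all stimulated libraries exceeded all unstimulated ones in 1 of the 9 at 8 h and 4 at 22 h, beside 14.2% and 15.7% of all genes. With DC this held for 1 and 1, beside 13.0% and 12.8%. The reverse held for 3 and 3 with IF, beside 16.4% and 14.7%, and for 3 and 2 with DC, beside 15.2% and 14.2%.

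**Figure D2:**
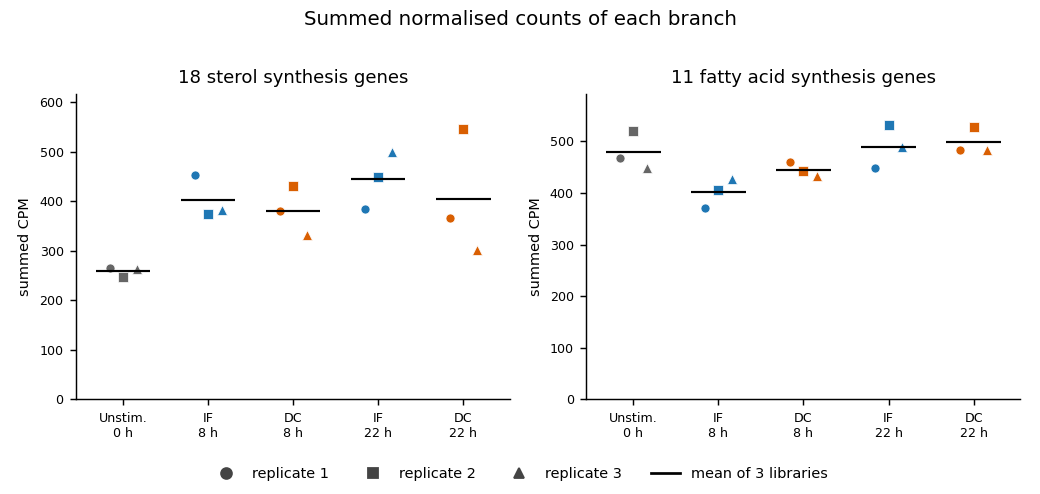
Summed normalised counts (y axis, CPM) of the 18 sterol synthesis genes (left) and the 11 fatty acid synthesis genes (right) in each of the 15 libraries, with symbols for the replicate number and a bar for the mean of 3. All 12 stimulated libraries lie above the unstimulated ones in the sterol panel, with DC 22 h replicate 2 highest at 546 CPM, while in the fatty acid panel only the IF 8 h libraries lie outside the unstimulated range as a group.

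Sc4mol (chr8:64718139-64733792, minus strand), the methylsterol monooxygenase that removes methyl groups from sterol intermediates after lanosterol, was the gene most often called higher by edgeR. It stood at 17.9, 13.7 and 11.6 CPM in unstimulated cells. With IF it stood at 52.8, 57.4 and 31.6 CPM at 8 h and 31.9, 38.2 and 43.2 CPM at 22 h. With DC it stood at 29.7, 38.5 and 27.7 CPM at 8 h and 24.6, 41.5 and 21.6 CPM at 22 h. All 12 stimulated libraries lay above all unstimulated ones, as they did for Sqle, Cyp51, Idi1 and Elovl6. With IF, Sc4mol rose by 1.70 ± 0.29 (log2, SE) at 8 h (adjusted p = 0.0018) and 1.38 ± 0.29 at 22 h (0.00843). With DC it rose by 1.14 ± 0.29 (0.0232) and 1.01 ± 0.29 (0.0393). By edgeR, Sc4mol was the only gene of the set called higher in all 4 comparisons. DESeq2 also passed Sqle, Cyp51, Idi1 and Hmgcs1 in comparisons that edgeR missed, as given below. The call at IF 8 h held without any 1 library. That at DC 8 h was lost without unstimulated replicate 2 or 3 (adjusted p = 0.0912 and 0.104) or DC 8 h replicate 2 (0.0981), and that at IF 22 h without unstimulated replicate 3 (0.0528) or without IF 22 h replicates 2 and 3 together (0.263). At DC 22 h it was lost without unstimulated replicate 1, 2 or 3 (0.0541, 0.126 and 0.151), DC 22 h replicate 1 (0.0535) or replicate 2 (0.177), and with only the compared groups in the fit (0.0882).

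Sqle (chr15:59315077-59331192, plus strand), squalene epoxidase, catalyses the first oxygen-dependent step of sterol synthesis. It was at 8.51, 7.59 and 5.35 CPM in unstimulated cells. It was at 30.9, 36.8 and 22.8 CPM at IF 8 h and 18.9, 13.9 and 22.5 CPM at IF 22 h. With DC it was at 18.1, 32 and 15.9 CPM at 8 h and 13.8, 38.9 and 12 CPM at 22 h. No stimulated library overlapped the unstimulated ones, and replicate 2 was the highest DC library at both times. With IF, Sqle rose by 2.06 ± 0.43 (log2, SE) at 8 h (adjusted p = 0.00828) and had 1.35 ± 0.42 at 22 h, which missed the threshold (0.0686). The latter passed in DESeq2 (0.0312), with library size alone (0.0355), without the low-count filter (0.00147), with the replicate block (0.0361) and with only the compared groups in the fit (0.0181), and was 1.39 (0.368) without IF 22 h replicates 2 and 3. With DC it rose by 1.61 ± 0.42 at 8 h (0.0284) and 1.57 ± 0.42 at 22 h (0.0296). The IF 8 h call held without any 1 library. Without unstimulated replicate 1, 2 or 3 or without DC replicate 2, the adjusted p was 0.0679, 0.0912, 0.118 and 0.142 at DC 8 h and 0.0695, 0.0893, 0.119 and 0.186 at DC 22 h, where the fit of only the compared groups gave 0.0803.

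Cyp51 (chr5:4081145-4104746, minus strand), lanosterol demethylase, acts on the first sterol of the pathway. Its exons overlap those of Akap9 on the opposite strand, and whether the counting used strand is not given in the sources used here. It was at 11.3, 14.3 and 9.54 CPM in unstimulated cells, against 61.9, 35.1 and 40.7 CPM at IF 8 h and 39.2, 45.2 and 50.5 CPM at IF 22 h. DC libraries had 29.0, 55.1 and 17.6 CPM at 8 h and 27.1, 70.0 and 17.9 CPM at 22 h. No IF library lay under 35.1 CPM, whereas DC replicate 3 lay close above the unstimulated range at both times. With IF, Cyp51 rose by 1.97 ± 0.46 (log2, SE) at 8 h (adjusted p = 0.0164) and 1.94 ± 0.46 at 22 h (0.0191). With DC it rose by 1.70 ± 0.46 at 22 h (0.0301), and its value of 1.53 at 8 h missed the threshold (0.0541). That value passed in DESeq2 (0.0129), with library size alone (0.023), without the low-count filter (1.45e-05), with the replicate block (0.0419), with only the compared groups in the fit (0.0275) and without DC 8 h replicate 3 (0.0261). The IF 8 h call was lost without unstimulated replicate 1 or 3 or IF 8 h replicate 1 (0.0647, 0.0723 and 0.075). The IF 22 h call was lost without unstimulated replicate 1, 2 or 3 (0.0742, 0.0541 and 0.0888), IF 22 h replicate 3 (0.0633) or both IF 22 h replicates 2 and 3 (0.265). At DC 22 h it was lost without unstimulated replicate 1, 2 or 3 (0.0997, 0.0687 and 0.116), DC 22 h replicate 2 (0.187), and with only the compared groups (0.0627).

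Idi1 (chr13:8885501-8892451, plus strand) encodes isopentenyl diphosphate isomerase, which interconverts the isoprene building blocks, and its exons overlap Gm48574 on the opposite strand. It had the highest log2 fold change of the set, from a low base. Unstimulated libraries held 2.06, 1.81 and 1.40 CPM. IF libraries held 7.14, 4.97 and 8.84 CPM at 8 h and 6.19, 8.01 and 7.71 CPM at 22 h, and DC libraries held 8.81, 12.9 and 2.79 CPM at 8 h and 10.8, 20.5 and 4.27 CPM at 22 h. Every stimulated library lay above the unstimulated ones. With DC, Idi1 rose by 2.20 ± 0.59 (log2, SE) at 8 h (adjusted p = 0.0304) and 2.72 ± 0.59 at 22 h (0.00867). With IF it rose by 2.03 ± 0.58 at 22 h (0.0484), and its value of 1.97 at 8 h missed the threshold (0.0544). That value passed in DESeq2 (0.0201), with library size alone (0.0296), without the low-count filter (0.00557), with the replicate block (0.0404) and with only the compared groups in the fit (0.0304). In counts per 1000000 of the unscaled library total, the unit of the low-count filter and not of the CPM given here, it was the only tested gene of the set under the cutoff of 1.26 in an unstimulated library. The DC 22 h call held without any 1 library. The DC 8 h call was lost without unstimulated replicate 1, 2 or 3 (0.0821, 0.10 and 0.110) or DC 8 h replicate 1 or 2 (0.0752 and 0.142). The IF 22 h call was lost without unstimulated replicate 1, 2 or 3 (0.118, 0.139 and 0.156), IF 22 h replicate 2 or 3 (0.126 and 0.129), or both of the latter (0.432).

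Hmgcs1, Fdft1 and Acat2 each passed in 1 comparison. Hmgcs1 (chr13:119690379-119708260, plus strand) is the cytosolic HMG-CoA synthase, and its exons overlap Gm48342 on the opposite strand. It had 27.9, 16.3 and 18.6 CPM in unstimulated cells, 58.0, 33.5 and 48.8 CPM at IF 8 h, and 48.9, 41.6 and 56.9 CPM at IF 22 h. With DC it had 41.0, 68.1 and 27.3 CPM at 8 h and 37.6, 68.8 and 32.4 CPM at 22 h. Only DC 8 h replicate 3 fell within the unstimulated range. Its log2 fold changes were alike in size, 1.16 ± 0.35 (SE) with IF and 1.11 ± 0.35 with DC at 8 h (adjusted p = 0.053 and 0.0635), and 1.23 ± 0.35 with IF and 1.14 ± 0.35 with DC at 22 h (0.0443 and 0.0548). Hmgcs1 thus passed at IF 22 h and just missed in the others, and leaving out any 1 of the 6 libraries compared ended the IF 22 h call (adjusted p from 0.0537 to 0.177; 0.337 without IF 22 h replicates 2 and 3). The other values passed under some alternatives. DESeq2, library size alone and no low-count filter gave 0.0192, 0.021 and 0.000717 at IF 8 h, 0.0257, 0.0215 and 0.00102 at DC 8 h, and 0.0194, 0.0119 and 0.000584 at DC 22 h. At IF 8 h it also passed with only the compared groups (0.0113) and without IF 8 h replicate 2 (0.0499), and with DC without replicate 3 of the group (0.0279 at 8 h and 0.0287 at 22 h).

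Fdft1 (chr14:63145150-63179578, minus strand) is squalene synthase, the first enzyme committed to sterols, and its exons overlap Ctsb on the opposite strand. Unstimulated libraries had 30.2, 36.3 and 30.7 CPM. Those of IF had 58.5, 59.7 and 56.0 CPM at 8 h and 55.8, 93.2 and 110 CPM at 22 h, and those of DC had 75.7, 25.0 and 47.3 CPM at 8 h and 68.3, 62.9 and 56.0 CPM at 22 h. DC 8 h replicate 2, the highest DC 8 h library for Sqle, Cyp51, Sc4mol, Idi1 and Hmgcs1, was for Fdft1 below every unstimulated library. Fdft1 rose by 1.42 ± 0.31 (log2, SE) at IF 22 h (adjusted p = 0.0116), and the call was lost without unstimulated replicate 1 or 3 (0.0534 and 0.0528), IF 22 h replicate 3 (0.0654) or both IF 22 h replicates 2 and 3 (0.510), where the log2 fold change was 0.78. It had 0.84 with IF at 8 h (0.114), and with DC 0.61 at 8 h (0.276) and 0.94 at 22 h (0.073). The last passed in DESeq2 (0.0342), with library size alone (0.0119), without the low-count filter (0.00288) and with only the compared groups (0.0215).

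Acat2 (chr17:12942890-12960747, minus strand) is the cytosolic thiolase that joins acetyl-CoA units at the entry of the pathway. It had 22.3, 16.3 and 14.4 CPM in unstimulated cells and 26.5, 48.6 and 29.3 CPM at DC 22 h, without overlap. It rose by 0.97 ± 0.29 (log2, SE) there (adjusted p = 0.0494), a call lost without unstimulated replicate 1, 2 or 3 (0.0553, 0.148 and 0.170) or DC 22 h replicate 2 (0.210), with the replicate number as a block (0.0536) and with only the compared groups in the fit (0.0881). At 8 h it lay at 21.8, 9.95 and 15.8 CPM with IF and 22.8, 20 and 18.5 CPM with DC, within or next to the unstimulated range. At IF 22 h it was at 29.2, 22.9 and 30.1 CPM, all above the unstimulated libraries, with a log2 fold change of 0.63 ± 0.29 that did not pass (0.227; 0.591 without IF 22 h replicates 2 and 3).

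**Figure D3:**
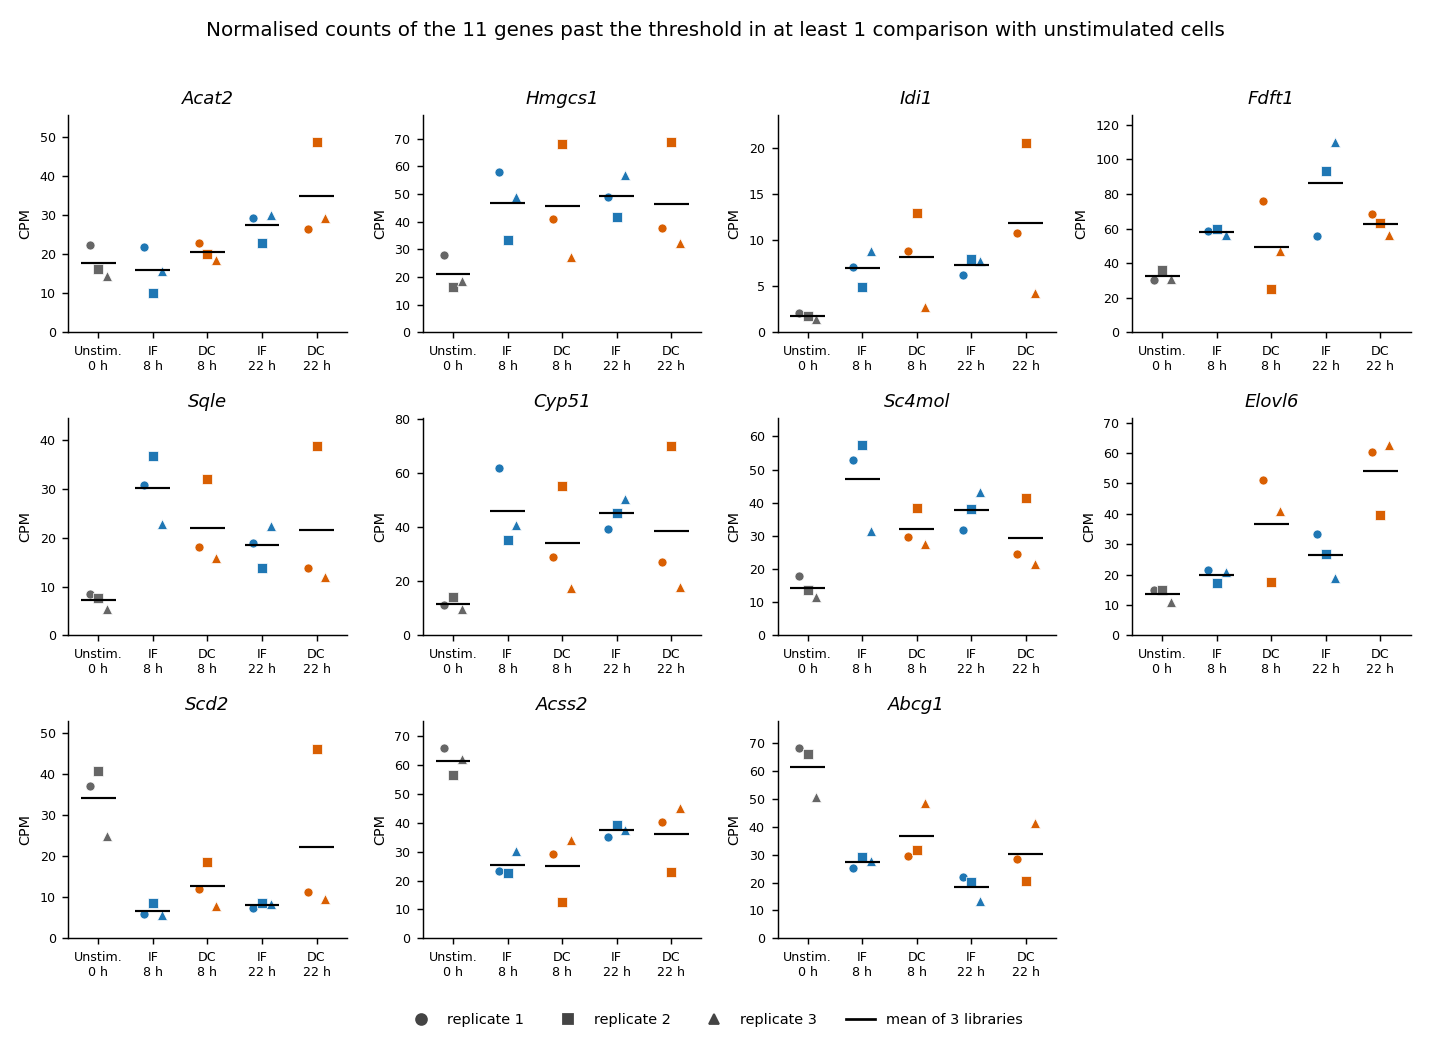
Normalised counts (y axis, CPM) of the 11 genes past the threshold in at least 1 comparison with unstimulated cells, in each of the 15 libraries; symbols give the replicate number and bars the mean of 3. Sqle, Cyp51, Sc4mol, Idi1 and Elovl6 lie above the unstimulated libraries in all 12 stimulated ones, Acss2 and Abcg1 lie below in all 12, and Scd2 lies below in 11, with DC 22 h replicate 2 at 46.2 CPM.

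The other 11 sterol enzymes passed in no comparison, and they did not lean one way. Pmvk (phosphomevalonate kinase), Fdps (farnesyl diphosphate synthase) and Sc5d (sterol desaturase) had positive log2 fold changes in all 4 comparisons, from 0.65 to 1.22, from 0.60 to 0.92 and from 0.60 to 0.76. The lowest adjusted p among these was 0.098, for Fdps at DC 8 h, which passed with library size alone (0.0292), without the low-count filter (0.00992) and with only the compared groups (0.031). Nsdhl, Tm7sf2 and Ebp, which act on sterols after lanosterol, and Mvd, the mevalonate diphosphate decarboxylase, had negative values in all 4, from −1.09 for Mvd at IF 8 h (adjusted p = 0.313) to −0.02 for Ebp at IF 22 h (0.978). Mvk, Lss, Hsd17b7 and Dhcr7 had values of both signs, from −0.52 to 0.28, −0.03 to 0.44, −0.27 to 0.33 and −0.7 to 0.19. Enzymes with positive and negative estimates thus stood next to each other along the pathway.

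The regulators did not pass in any of the 4 comparisons by edgeR. Of the 6, an unadjusted p under 0.05 was reached by 3 at 8 h and 2 at 22 h with IF, and by 1 and 0 with DC, beside 22.9%, 20.5%, 20.9% and 22.2% of all genes, and DESeq2 called 1 in all, at IF 22 h. Insig1, the sterol-sensitive retention factor and itself an SREBP target, came closest. It had 3.96, 6.14 and 4.66 CPM in unstimulated cells and 8.57, 12.5 and 16.6 CPM at IF 22 h, all above the unstimulated libraries. The log2 fold change there was 1.36 ± 0.41 (SE, adjusted p = 0.0628), and it passed in DESeq2 (0.0357), with library size alone (0.0299), without the low-count filter (0.0226), with only the compared groups (0.0365) and without IF 22 h replicate 1 (0.033). Without IF 22 h replicates 2 and 3 it was 0.80 (0.700). It was 1.13 with IF at 8 h (0.118), and with DC 0.92 at 8 h (0.214) and 0.79 at 22 h (0.273). Insig2, its paralog, had −1.04 at IF 8 h (0.150) and −0.10 at DC 8 h (0.926).

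Srebf2, the gene of the SREBP that mainly drives sterol enzymes, was at 11.9, 13.2 and 15.6 CPM in unstimulated cells and 25.0, 18.9 and 19.0 CPM at IF 8 h. The libraries did not overlap, and the log2 fold change of 0.64 ± 0.23 (SE) did not pass (adjusted p = 0.0996; 0.0243 with library size alone). Srebf2 had 0.50 with IF at 22 h (0.215; 0.684 without IF 22 h replicates 2 and 3), and with DC 0.20 at 8 h (0.664) and 0.16 at 22 h (0.722). Srebf1, whose products drive fatty acid genes, had log2 fold changes between −0.28 and 0.29 (−0.77 at IF 22 h without replicates 2 and 3, adjusted p = 0.452), and Scap, the SREBP escort, between −0.18 and 0.23. Stard4, a cytosolic sterol carrier, had 0.91 ± 0.51 at DC 22 h (0.315), where its libraries were at 8.08, 17.9 and 5.47 CPM against 2.50, 5.24 and 9.31 CPM unstimulated.

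In the fatty acid branch the elongase Elovl6 (chr3:129532355-129638495, plus strand), which extends palmitate, was the only gene called higher by edgeR (DESeq2 also passed Fads1, at IF 22 h). Its exons overlap Gm35986 on the opposite strand. Unstimulated libraries had 14.8, 15 and 10.9 CPM. With DC the values were 51.1, 17.6 and 41.0 CPM at 8 h and 60.2, 39.7 and 62.5 CPM at 22 h, and with IF they were 21.4, 17.2 and 20.9 CPM at 8 h and 33.2, 26.9 and 18.7 CPM at 22 h. All stimulated libraries exceeded the unstimulated ones, and DC replicate 2 was the lowest of its group at both times. Elovl6 rose by 1.99 ± 0.34 (log2, SE) at DC 22 h (adjusted p = 0.0016), a call that held without any 1 library. It rose by 1.42 ± 0.33 at DC 8 h (0.0154), lost without unstimulated replicate 3 (0.072) or DC 8 h replicate 1 (0.0843). With IF its values were 0.54 ± 0.34 at 8 h (0.366) and 0.94 ± 0.33 at 22 h (0.111; 1.28 and 0.231 without IF 22 h replicates 2 and 3).

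The direct comparison of both stimuli for Elovl6 did not pass: the log2 difference of IF minus DC was −1.05 ± 0.32 (SE) at 22 h (adjusted p = 0.104), with no overlap of the libraries, and −0.88 ± 0.33 at 8 h (0.422). At 22 h it passed in DESeq2 (0.0403), without a filter on low counts (0.0059) and without IF 22 h replicate 1 (0.0452), and was 0.975 without IF 22 h replicates 2 and 3. The dendritic cell marker Fscn1 was 72.9 to 94.8 CPM in the DC 22 h libraries and 5.83 to 43.8 CPM in those of IF 22 h, whereas Itgax, another of the 18 dendritic cell markers, was 2.05 to 7.69 CPM with DC and 14.0 to 31.8 CPM with IF. Both were picked out after their values were seen, and the summed markers overlapped at 375 to 635 CPM with IF and 492 to 659 CPM with DC.

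Scd2 (chr19:44293674-44306864, plus strand), a stearoyl-CoA desaturase that makes monounsaturated fatty acids, fell with IF. It shares exonic bases with Mir5114 on the same strand. It was at 37.1, 40.7 and 24.9 CPM in unstimulated cells, 5.89, 8.62 and 5.63 CPM at IF 8 h and 7.26, 8.61 and 8.42 CPM at IF 22 h. With DC it was at 11.9, 18.6 and 7.78 CPM at 8 h and 11.3, 46.2 and 9.57 CPM at 22 h. The IF libraries lay in a narrow band far below the unstimulated ones, while DC 22 h replicate 2 exceeded all of them. Scd2 fell by 2.37 ± 0.52 (log2, SE) at IF 8 h (adjusted p = 0.011) and by 2.08 ± 0.49 at IF 22 h (0.0184). Its changes with DC were −1.42 ± 0.48 at 8 h (0.0856) and −0.62 ± 0.46 at 22 h (0.460), and without DC 22 h replicate 2 the latter was −1.70 (0.00876). The DC 8 h value passed in DESeq2 (0.0459), without the low-count filter (0.00121), with the replicate block (0.023) and with only the compared groups (0.0188). The IF 8 h call was lost without IF 8 h replicate 1 or 3 (0.0552 and 0.0536), and the IF 22 h call without unstimulated replicate 1 or 2 (0.0558 and 0.0695), IF 22 h replicate 2 or 3 (0.0627 and 0.0684) or both (0.282). The direct difference of IF minus DC at 22 h was −1.46 ± 0.48 (0.131), and −0.37 without DC 22 h replicate 2 (0.683). It was −1.62 (0.940) without IF 22 h replicates 2 and 3, and passed without the low-count filter (0.00125) and without DC 22 h replicate 3 (0.0473).

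Acss2 (chr2:155517948-155585724, plus strand), which makes cytosolic acetyl-CoA from acetate, fell at 8 h with both stimuli. Its exons overlap Acss2os, Ggt7 and Gss on the opposite strand. The unstimulated libraries had 65.9, 56.7 and 62.1 CPM. At 8 h the values were 23.4, 22.5 and 30.3 CPM with IF and 29.1, 12.4 and 34.1 CPM with DC, and at 22 h they were 35.1, 39.4 and 37.6 CPM with IF and 40.3, 23.0 and 45.0 CPM with DC. All 12 stimulated libraries lay below all unstimulated ones. Acss2 fell by 1.28 ± 0.31 (log2, SE) at IF 8 h (adjusted p = 0.019) and by 1.29 ± 0.30 at DC 8 h (0.0159). Its changes at 22 h were −0.72 ± 0.30 with IF (0.178) and −0.77 ± 0.30 with DC (0.134). The IF 8 h call was lost without unstimulated replicate 1 or 3 (0.0575 and 0.0504) or IF 8 h replicate 1 or 2 (0.0721 and 0.0667), and the DC 8 h call without unstimulated replicate 1 (0.0538).

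The core enzymes of fatty acid synthesis did not pass. Acly, ATP citrate lyase, had log2 fold changes between −0.08 and 0.27 with an SE of 0.18 in each comparison. Acaca, acetyl-CoA carboxylase, had values between 0.24 and 0.54, and Fasn, fatty acid synthase, between 0.48 and 0.77, with SEs of 0.47 to 0.49 and 0.40 to 0.41. Fasn was at 35.7, 37.4 and 21.9 CPM unstimulated, and DC replicate 2 held the highest Fasn values of the series, 69.6 CPM at 8 h and 87.7 CPM at 22 h. Fads1, a desaturase of polyunsaturated fatty acids, was at 6.17, 6.14 and 8.84 CPM unstimulated and 15.2, 13.6 and 14.5 CPM at IF 22 h, without overlap, with a log2 fold change of 1.04 ± 0.31 (SE) that just missed (adjusted p = 0.0566). It passed in DESeq2 (0.0329), with only the compared groups (0.0383) and with library size alone (0.023), and was 1.12 (0.368) without IF 22 h replicates 2 and 3. The elongase Elovl5 was lower in all 12 stimulated libraries than in any unstimulated one, by −0.26 to −0.42 on the log2 scale, and passed nowhere (lowest adjusted p = 0.175). Elovl1, an elongase of very long chains whose exons overlap Cdc20 on the opposite strand, had values from 0.03 to 0.55.

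The sterol efflux pump Abcg1 (chr17:31057675-31117988, plus strand) fell in 3 of the 4 comparisons. It was at 68.3, 66.0 and 50.7 CPM in unstimulated cells. IF libraries had 25.2, 29.2 and 27.9 CPM at 8 h and 21.8, 20.2 and 13.3 CPM at 22 h, and DC libraries had 29.7, 31.8 and 48.6 CPM at 8 h and 28.3, 20.7 and 41.4 CPM at 22 h. All 12 stimulated libraries were below the unstimulated ones, with DC replicate 3 the nearest at both times. Abcg1 fell by 1.75 ± 0.28 (log2, SE) at IF 22 h (adjusted p = 0.00102), by 1.17 ± 0.28 at IF 8 h (0.0164) and by 1.03 ± 0.27 at DC 22 h (0.0265), and its change at DC 8 h was −0.75 ± 0.27 (0.109). The IF 22 h call held without any 1 library and was 0.109 without IF 22 h replicates 2 and 3. At IF 8 h the call was lost without unstimulated replicate 1 or 2 or IF 8 h replicate 1 or 3 (0.0577, 0.0551, 0.0663 and 0.0557). At DC 22 h it was lost without unstimulated replicate 1 or 2 or DC 22 h replicate 1 or 2 (0.0964, 0.0927, 0.0895 and 0.116), with library size alone (0.0857) or only the compared groups in the fit (0.0595).

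Abca1, the other pump, had 21.9, 21.0 and 5.35 CPM in unstimulated cells and 2.26, 4.54 and 4.29 CPM at IF 22 h, also without overlap. Its log2 fold change with IF was −1.98 ± 0.72 (SE) at 8 h and −2.12 ± 0.68 at 22 h (adjusted p = 0.105 and 0.0806), and with DC it was −1.45 ± 0.67 and −1.37 ± 0.66 (0.227 and 0.235). The IF 22 h value passed in DESeq2 (0.0305), without the low-count filter (0.000752) and with only the compared groups (0.0298), and was −2.83 (0.379) without IF 22 h replicates 2 and 3. Unstimulated replicate 3 had the low value, which left a wide spread in the control group.

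Few other genes of these pathways passed. Of 14 other tested sterol genes (further enzymes, uptake, esterification and trafficking), 1 fell at IF 8 h, beside 4.72% of all genes, and 1 at DC 8 h, beside 4.07%. None passed at 22 h by edgeR, where 4 had an unadjusted p under 0.05 with IF and 4 with DC, beside 20.5% and 22.2%, and DESeq2 called 2 and 1. Npc2, the lysosomal sterol carrier, was at 590, 699 and 634 CPM unstimulated and 383, 455 and 402 CPM at IF 8 h, and fell there by 0.63 ± 0.17 (log2, SE; adjusted p = 0.0362). It was at 420, 525 and 463 CPM at IF 22 h, 456, 379 and 588 CPM at DC 8 h, and 534, 466 and 654 CPM at DC 22 h, of which only DC 22 h overlapped the unstimulated libraries. Acat1, the mitochondrial thiolase, was at 65.0, 70.8 and 47.9 CPM unstimulated and 30.6, 46.7 and 29.7 CPM at DC 8 h, and fell there by 0.78 ± 0.20 (0.0265). With IF at 8 h it was at 36.4, 41.8 and 38.8 CPM, also below the unstimulated libraries, with −0.66 ± 0.21 (0.0622). At 22 h it overlapped them, at 59.0, 56.9 and 52.9 CPM with IF and 58.8, 65.7 and 52.4 CPM with DC. The Npc2 call was lost without any 1 of its 6 libraries (0.0539 to 0.119) and with library size alone (0.143), and the Acat1 call without unstimulated replicate 1 or 2 or DC 8 h replicate 1 or 3 (0.0954, 0.137, 0.117 and 0.109), with library size alone (0.119) or only the compared groups in the fit (0.0649).

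Of 24 other tested fatty acid genes (elongation, activation, oxidation and storage), 1 rose at 8 h with IF, beside 3.04% of all genes, and at 8 h with DC 1 rose and 2 fell, beside 2.75% and 4.07%. At 22 h none passed with IF by edgeR (1 by DESeq2), beside 6.08%, and 1 fell with DC, beside 4.35%. Dgat1, the acyltransferase that completes triglycerides, was at 11.2, 6.14 and 14.2 CPM unstimulated, 22.8, 22.9 and 26.0 CPM at IF 8 h and 26.2, 19.0 and 39.3 CPM at DC 8 h. It rose by 1.19 ± 0.31 (log2, SE) with IF (adjusted p = 0.0259) and 1.43 ± 0.30 with DC (0.00804). At 22 h it was at 14.9, 12.3 and 13.6 CPM with IF and 14.1, 16.4 and 19.1 CPM with DC, overlapping the unstimulated libraries. The DC call held without any 1 library, and the IF call was lost without unstimulated replicate 1 or 2 or IF 8 h replicate 1, 2 or 3 (0.0665, 0.107, 0.060, 0.0517 and 0.0822). Cpt1a, which admits fatty acids to mitochondrial oxidation, was at 22.0, 55.7 and 50.0 CPM unstimulated and 15.7, 10.4 and 20.8 CPM at DC 8 h. With IF it was at 21.1, 24.2 and 14.5 CPM at 8 h and 35.1, 27.1 and 37.7 CPM at 22 h, and at DC 22 h at 28.9, 11.3 and 35.7 CPM. It fell by 1.44 ± 0.40 at DC 8 h (0.0386), lost without unstimulated replicate 2 or 3 or DC 8 h replicate 1 or 2 (0.16, 0.124, 0.107 and 0.155) and with library size alone (0.0721). At IF 22 h, 1 of the 24 had an unadjusted p under 0.05, beside 20.5% of all genes.

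Tecr, the reductase that ends each cycle of very long chain elongation, passed the test with DC. It was at 300, 342 and 345 CPM unstimulated, 208, 224 and 207 CPM at DC 8 h and 210, 227 and 224 CPM at DC 22 h, without overlap. At IF 8 h it was at 244, 252 and 268 CPM, also below all unstimulated libraries, with a log2 fold change of −0.37 ± 0.14 (SE) that did not pass (adjusted p = 0.121). At IF 22 h it was at 288, 365 and 382 CPM, with 0.07 ± 0.14 (0.847; −0.19 and 0.814 without IF 22 h replicates 2 and 3). It fell by 0.63 ± 0.14 (log2, SE) at DC 8 h (adjusted p = 0.0114) and by 0.58 ± 0.14 at DC 22 h (0.0175). The DC 8 h call was lost without unstimulated replicate 2 or 3 (0.0547 and 0.053) and with library size alone (0.0899). The DC 22 h call was lost without unstimulated replicate 2 or 3 or DC 22 h replicate 1 (0.0803, 0.082 and 0.0718), with library size alone (0.209), without a filter on low counts (0.0522) and with only the compared groups (0.0727).

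Between IF and DC none of the 35 genes passed at 8 h, beside 0.665% of all genes tested, or at 22 h, beside 2.43%. An unadjusted p under 0.05 was reached by 3 genes at 8 h and 5 at 22 h, beside 8.27% and 15.3% of all genes, and DESeq2 called 0 at 8 h and 1 at 22 h, Elovl6. The libraries of both stimuli did not overlap for 1 higher and 3 lower genes of IF at 8 h and for 3 higher and 2 lower at 22 h, beside 5.8%, 7.7%, 10.7% and 9.11% of all genes. For the sterol genes that rose with both stimuli the direct difference of IF minus DC did not pass, for example 0.56 ± 0.28 (log2, SE) for Sc4mol and 0.45 ± 0.40 for Sqle at 8 h, and 0.23 ± 0.43 for Cyp51 and −0.69 ± 0.51 for Idi1 at 22 h (adjusted p = 0.631, 0.889, 0.862 and 0.585). These widths do not show that the stimuli act alike. Without IF 22 h replicates 2 and 3 the difference was 0.03 for Cyp51 and −0.93 for Idi1.

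From 8 h to 22 h none of the 35 passed with IF, beside 1.12%, or with DC, beside 0.48%. An unadjusted p under 0.05 was reached by 6 genes with IF and 1 with DC, beside 15% and 9.03% of all genes, and DESeq2 called 0 in both. The nearest was Fads1 with IF, at 6.96, 5.97 and 6.97 CPM at 8 h and 15.2, 13.6 and 14.5 CPM at 22 h, a difference of 1.12 ± 0.32 (log2, SE; adjusted p = 0.108, and 0.828 without IF 22 h replicates 2 and 3). With DC it was Acat2, at 0.77 ± 0.28 (0.358), which with IF had 0.77 ± 0.29 (0.228; 0.86 and 0.906 without IF 22 h replicates 2 and 3). The interaction of stimulus and time called none of the 35 by edgeR or DESeq2, beside 0.0% of all genes, and 2 genes had an unadjusted p under 0.05, beside 7.92%, Fads1 and Elovl1.

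In many sterol genes 1 library of a stimulated group held the highest value. With DC, replicate 2 held the highest value of its group in 10 of the 18 sterol genes at DC 8 h and in 12 of 18 at DC 22 h. Over all tested genes these libraries were highest in 36.1% and 39.2%. Replicate 2 was highest at both times in 10 sterol genes, 4 fatty acid genes and 3 regulators, which was not counted over all genes. DC 8 h replicate 2 and DC 22 h replicate 2 were not taken to be paired. At DC 22 h the summed sterol count of replicate 2 was 546 CPM, against 366 and 302 CPM in replicates 1 and 3. At 22 h, 3 of the 35 genes passed without DC 22 h replicate 2 instead of 7, and at 8 h, 3 passed without DC 8 h replicate 2 instead of 5. Such drops are not particular to replicate 2, since leaving out another library lowered the counts further in both comparisons. With IF the highest sterol values at 22 h lay in replicate 3, in 11 of 18 genes, beside 32.7% of all genes, and this is one of the libraries that stood apart in mitochondrial ribosomal RNA.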

How the data were processed

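RNA was read from sorted T cells by an adapted CEL-seq protocol, per the labels' protocols, with 15 libraries in 5 groups. The deposited tables hold raw counts per gene, as whole numbers that the authors did not normalise. BWA and the genome build mm10 are named in the submitters' processing notes; the counting program, annotation, strand setting and use of molecular identifiers are not given in the sources used here. Amplified reads need not be independent molecules.

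Gene names were matched by symbol, and positions and exonic overlaps come from GENCODE vM21 (GRCm38, the assembly called mm10). Genes were kept by filterByExpr (minimum count 10, minimum total 15), which left 10831 of 17493. In R 4.3.3, edgeR 4.0.16 with TMM scaling fitted 5 group means to all 15 libraries. The two-sided quasi-likelihood F test was run for 9 comparisons, each adjusted by the Benjamini-Hochberg method over all genes tested, with a threshold of 0.05. Fold changes use a prior count of 0.125, and CPM is counts per 1000000 of the TMM-scaled total. A count of 3 in a library equals 0.153 to 0.995 CPM. The fit was run on simulated counts with the same spread setting for all genes and no outlying libraries, which does not test it at the spread seen here.

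Alternatives were DESeq2 1.42.0, its size factors, library size alone, no low-count filter, the replicate number as a block, only the groups compared, and leaving out each library or IF 22 h replicates 2 and 3. Replicate pairs differed by 9.95 to 105 times counting noise (chi-square per degree of freedom), so none was taken for a repeat count of the same library. As amplified reads need not be independent, this measure cannot tell technical from biological replicates. Genes of the lists past the threshold in any comparison were named with every library's value, and other members by range or value. The members, lists and motifs were chosen with earlier results of these data known.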

Additional observations from a re-analysis of the deposited data

Results flagged for a closer look

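Tecr, an enzyme of very long chain fatty acid elongation outside the main set, was the one gene of these pathways for which the direct comparison of the stimuli passed the threshold. The log2 difference of IF minus DC at 22 h was 0.64 (edgeR adjusted p = 0.0214). IF 22 h libraries were at 288, 365 and 382 CPM and DC 22 h libraries at 210, 227 and 224 CPM, without overlap. The call was lost with library size alone (0.0522), with only the compared groups in the fit (0.191), without IF 22 h replicate 2 or 3 (0.111 and 0.137), without DC 22 h replicate 1 (0.0939), and without both IF 22 h replicates 2 and 3 (0.971), the libraries low in mitochondrial ribosomal RNA, where the difference was 0.38. The part of those libraries in the difference was not tested.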

How the results depend on the processing

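Of the 25 results of single genes past the threshold, none reversed under any alternative. They stayed past it in 143 of 150 fits that kept all libraries and in 78 of 150 that left out 1 library, and 5 of the 25 stayed past it in every fit without 1 library. The number of the 35 genes called (6 and 5 with IF and DC at 8 h, 7 and 7 at 22 h) was, in that order, 11, 9, 13 and 12 with library size alone, 10, 10, 11 and 14 without the low-count filter, and 10, 8, 13 and 3 with only the compared groups. DESeq2 called 8 at DC 8 h and 11 at IF 22 h. At IF 22 h the number was 0 without IF 22 h replicates 2 and 3, with 1 library left in the group. Leaving out each library in turn gave 2 to 6 with IF and 1 to 7 with DC at 8 h, and 2 to 7 with IF and 2 to 10 with DC at 22 h. For IF against DC at 22 h (0 as reported) it gave 0 to 1, the filter's removal gave 2 and DESeq2 gave 1. The cause of these shifts was not tested.

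Of 30 pairs of same-numbered libraries, 4 deviated together with a correlation over 0.1 (range −0.189 to 0.399), so the numbers were not taken to pair the samples, although 9 of 15 libraries correlated best with their own number. With the replicate block 7, 7, 8 and 6 genes were called in the 4 comparisons with unstimulated cells.

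At 2892874 to 19806730 counts per library, genes of a few CPM such as Idi1, Mvd, Lss and Hsd17b7 carry SEs of 0.47 to 0.62, and the parts of depth and of the spread between libraries in these SEs were not tested.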
